A study of Bos taurus with 12 samples.

Results

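Before a cell divides it passes through G2 phase, in which mitotic kinases are switched on, and then through mitosis, in which the chromosomes are condensed, attached to the spindle and pulled apart. Cyclin-dependent kinase 1 with its cyclin partners drives entry, the kinetochore links each chromosome to spindle microtubules, the spindle checkpoint delays separation until all are attached, and the anaphase promoting complex then marks cyclins and securin for degradation so that separase can open cohesin. In the early embryo the blastomeres cleave repeatedly without growth, and by the blastocyst stage most of these transcripts come from the embryonic genome.

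The genes described here are 51 that act in G2 phase or mitosis, chosen by name and sorted by function. The choice was made with earlier results of these data known. The groups are mitotic kinases, cyclins and their regulators, and the anaphase promoting complex with its activator, securin and separase. Further groups are kinetochore and spindle checkpoint genes, spindle and cytokinesis genes, and condensin with topoisomerase. A gene was measured when a probe set of the array carried its symbol and no other, and where a symbol had several such probe sets the one with the highest mean over all arrays was taken. This gave 45 of the 51 genes, out of 26773 probe sets in all. All 45 were among the probe sets tested, which left out the 2358 with the lowest mean. The other 6 were not measured in this way. TTK, TOP2A and PKMYT1 had no probe set of their own symbol, and the probe sets of CCNB2, MAD2L1 and ANAPC10 each carried a second symbol.

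RNA from pools of bovine blastocysts was hybridised to 12 Affymetrix Bovine Gene ST arrays, 3 for each of 4 groups, with a pool of 15 expanded blastocysts per the study (15 to 20 per the series design) and about 15 ng of total RNA for an array. VIVO blastocysts came from superovulated, inseminated donors and were the control. VITRO blastocysts came from slaughterhouse oocytes that were matured, fertilized and cultured in the laboratory. IFOT-M blastocysts came from slaughterhouse oocytes matured in vitro and then placed in a preovulatory follicle, and IFOT-IM blastocysts from such oocytes placed in a dominant follicle while still immature, so that fertilization and development took place in an inseminated recipient. Semen of 1 bull served all groups. Oocyte donor, superovulation and follicle injection differ between VIVO and the IFOT groups and cannot be told apart, and an IFOT pool may hold some embryos from an oocyte of the recipient itself. The values are the deposited RMA values, taken as log2. An array pools many embryos, and fewer cells of a type and less RNA per cell cannot be told apart in it.

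Some features of the whole table bear on every result. The median over all probe sets of an array ran from 1.75 to 1.78 in VIVO and from 1.95 to 1.97 in VITRO, with IFOT-M (1.84 to 1.86) and IFOT-IM (1.86 to 1.93) in between, while the spread (SD) ran the other way, from 1.73 to 1.75 in VIVO down to 1.50 to 1.54 in VITRO. Probe sets with strong signal were therefore lower in VITRO as a class. IFOT-IM replicate 1, with an SD of 1.55 against 1.64 on both other IFOT-IM arrays, stood apart from its group. Of 13 lineage markers of the blastocyst, 9 were above the array median on all 12 arrays, KRT8, GATA3, POU5F1 and SOX2 among them. In VITRO against VIVO 9 of the 13 were lower and 1, NANOG, higher, beside 22.7% and 25.1% of all tested probe sets. In the highest decile of mean level 69.8% of all probe sets were lower. The sum of the log2 values of 8 cumulus and granulosa cell markers ran from 9.36 to 9.80 in VIVO and from 10.7 to 12.5 in VITRO. It was 9.70 to 10.9 for IFOT-M and 10.7 to 11.5 for IFOT-IM, and none of the 8 passed the test between VITRO and VIVO. FSHR, HAS2, PTX3, TNFAIP6, FOXL2 and INHA were below the median on every array. AMHR2, however, was above it on all 12 arrays and CYP19A1 on 11. Weak signals as a class were also higher in VITRO. In deciles 1 to 4 of mean level (10 the highest) all tested probe sets had medians of 0.24 to 0.26 in VITRO against VIVO. The part of cumulus and granulosa cells in the results was not tested. RNA integrity (RIN), as the study lists it for each pool, was lowest on average in VITRO. With it as a covariate 36 of the 45 genes were lower in VITRO than in VIVO, in place of 39. The share of all probe sets lower in that fit is not given here.

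On the deposited values, fully in vitro blastocysts were lower than in vivo blastocysts in most of the measured mitotic genes. At a Benjamini-Hochberg FDR below 0.1 in limma, 39 of the 45 genes were lower in VITRO than in VIVO and 0 were higher, where 22.7% of all tested probe sets were lower and 25.1% higher. The lower genes took in 8 of 10 kinases, cyclins and regulators. Of the anaphase promoting complex with its activator, securin and separase, 9 of 11 genes were lower. The rest were 9 of 10 kinetochore and checkpoint genes, 8 of 9 spindle and cytokinesis genes and all 5 condensin subunits. The median difference of the 45 was -0.83 on the log2 scale, beside 0.13 for all probe sets. In 14 genes the fall was more than 2-fold (5.71% of all probe sets). In 39 genes all 3 VITRO arrays lay below all 3 VIVO arrays, which was so for 23.2% of all probe sets. Strong signals fell as a class, however. In the highest decile of mean level, which held 14 of the genes, 69.8% of all probe sets were lower. After cyclic loess normalization 27 of the 45 genes were lower (14.8% of all probe sets) and 1 was higher (13.6%).

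**Figure D1:**
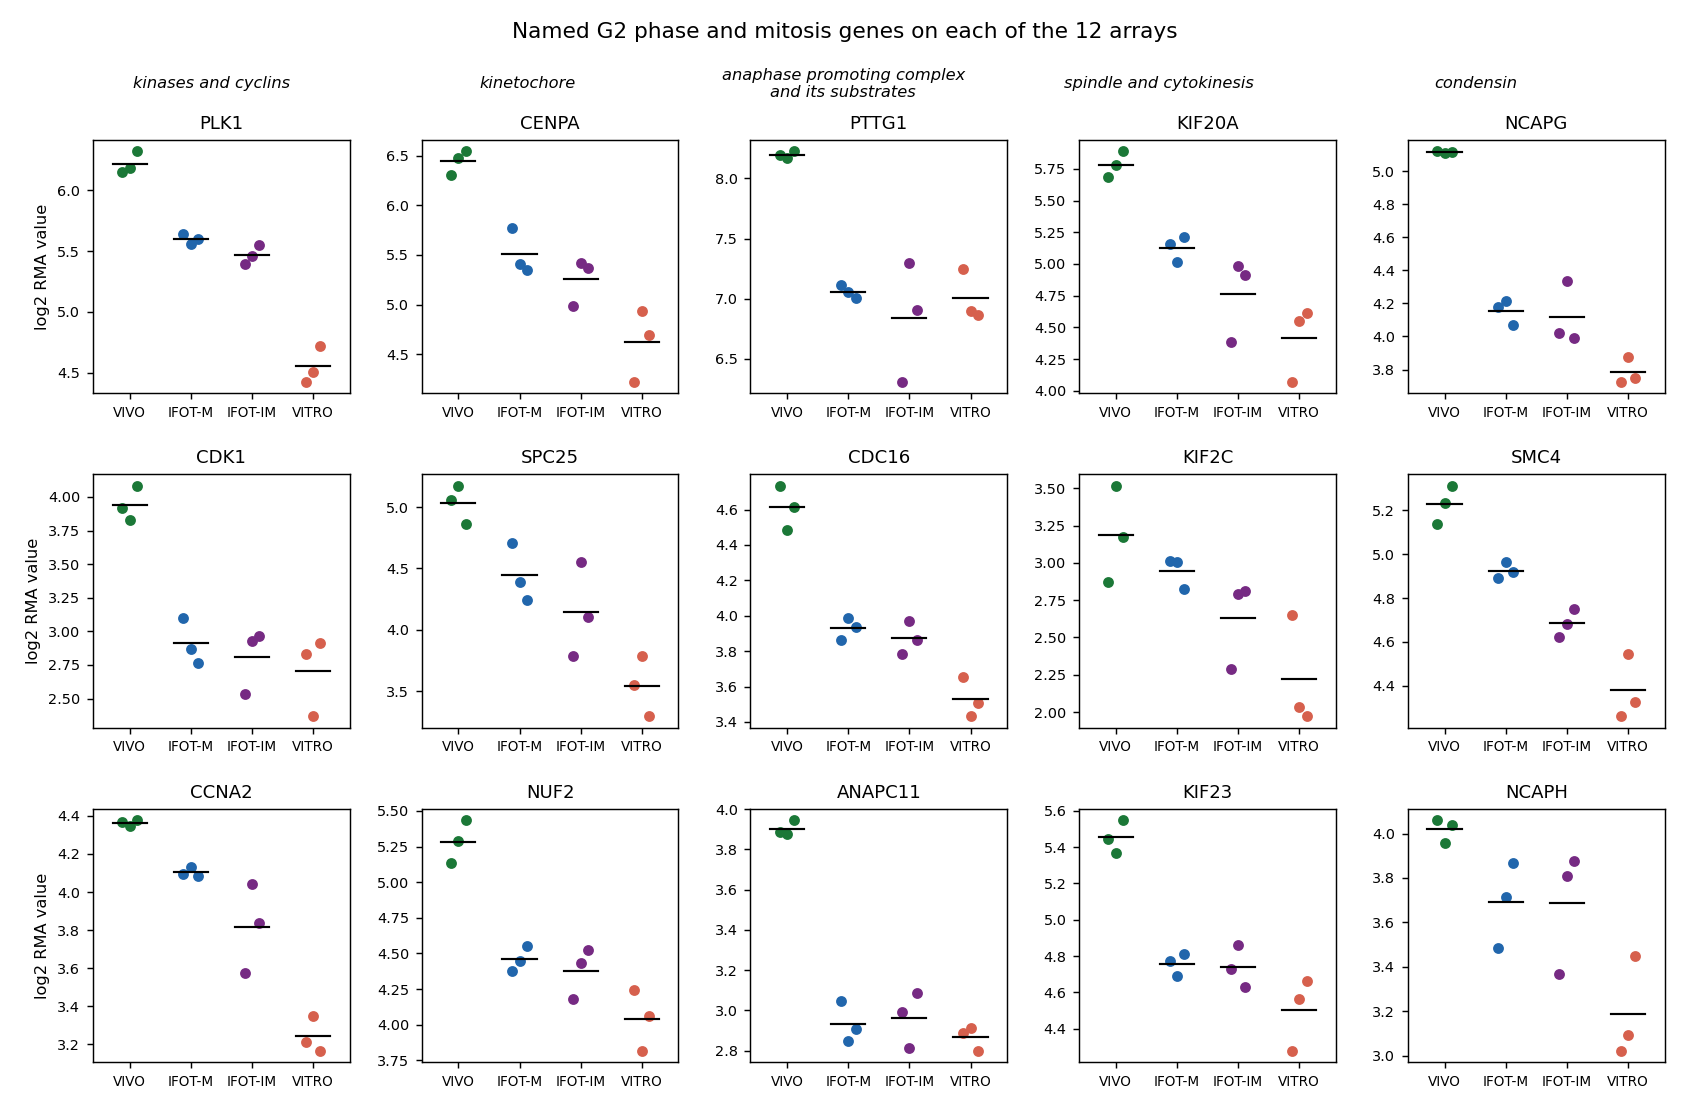
RMA values (log2, vertical axis, a scale for each gene) of the 3 genes of each function group with the largest difference between VITRO and VIVO, on each array of the 4 groups. Each point is 1 array and each bar the mean of 3. In all 15 genes the VIVO points lie above the VITRO points, while the IFOT points of CDK1, PTTG1 and ANAPC11 lie with those of VITRO.

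Among the mitotic kinases, PLK1, which acts on centrosomes, kinetochores and cytokinesis, measured 6.15, 6.18 and 6.32 on the VIVO arrays, 5.64, 5.56 and 5.60 in IFOT-M, 4.43, 4.51 and 4.72 in VITRO, and 5.39, 5.46 and 5.55 in IFOT-IM. The 4 groups did not overlap. PLK1 fell by 1.67 ± 0.12 (log2 difference ± SE) in VITRO against VIVO, a fold of 3.17 (FDR = 5.77e-06).

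CDK1, the kinase that drives entry into mitosis, gave another pattern. It measured 3.92, 3.83 and 4.08 in VIVO and 2.83, 2.37 and 2.91 in VITRO, beside 3.10, 2.87 and 2.76 for IFOT-M and 2.53, 2.93 and 2.97 for IFOT-IM. The VIVO arrays stood alone and those of the other 3 groups overlapped. The difference between VITRO and VIVO was -1.24 ± 0.17 (FDR = 0.000218).

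CCNA2, cyclin A2, a partner of CDK1 in G2 phase, measured 4.37, 4.35 and 4.38 in VIVO and 3.21, 3.35 and 3.17 in VITRO, beside 4.09, 4.13 and 4.08 for IFOT-M and 3.58, 4.04 and 3.84 for IFOT-IM. VITRO lay below every other array, at -1.12 ± 0.13 against VIVO (FDR = 6.65e-05). The Aurora kinases followed the same order of means. AURKA, which acts at the spindle poles, had means of 5.41 ± 0.11 (SD, n = 3) in VIVO and 4.39 ± 0.27 in VITRO, with IFOT-M at 5.22 ± 0.13 and IFOT-IM at 5.05 ± 0.18, and AURKB, the kinase of the chromosomal passenger complex, means of 3.89 ± 0.17 and 3.05 ± 0.21, with IFOT-M at 3.76 ± 0.04 and IFOT-IM at 3.51 ± 0.28. Both were lower in VITRO than in VIVO, by a fold of 2.02 (FDR = 0.000406) and 1.78 (FDR = 0.00179). WEE1, which holds CDK1 inactive, and FOXM1, a transcription factor of many G2 genes, were also lower, with differences of -0.56 (FDR = 0.0171) and -0.49 (FDR = 0.0146). CCNB1, cyclin B1, was lower too (-0.65, FDR = 0.0579), but its call was lost without VITRO replicate 1 (FDR = 0.155), VITRO replicate 2 (0.123) or VIVO replicate 2 (0.211). Of the measured phosphatases that activate CDK1, CDC25B and CDC25C did not pass, while CDC25A, which is not among the 51 and was picked after its values were seen, was lower (-1.38, FDR = 0.000169). CDC25B differed by -0.01 (95% confidence interval -0.33 to 0.31) and CDC25C by -0.32 (FDR = 0.104).

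Securin, PTTG1, which holds separase inactive until anaphase, measured 8.19, 8.17 and 8.22 in VIVO and 7.25, 6.90 and 6.87 in VITRO, beside 7.12, 7.05 and 7.01 for IFOT-M and 6.31, 7.30 and 6.91 for IFOT-IM. The VIVO arrays agreed closely and lay above all others, which overlapped. The difference between VITRO and VIVO was -1.19 ± 0.20, a fold of 2.28 (FDR = 0.000794). A second, much weaker probe set of PTTG1 differed by 0.20 (FDR = 0.254).

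ANAPC11, the RING finger subunit of the anaphase promoting complex, measured 3.89, 3.88 and 3.95 in VIVO and 2.89, 2.91 and 2.80 in VITRO, beside 3.05, 2.85 and 2.91 for IFOT-M and 2.99, 2.81 and 3.09 for IFOT-IM. As for PTTG1, only VIVO stood apart, by a fold of 2.05 over VITRO (FDR = 5.52e-05). CDC16, a scaffold subunit, measured 4.73, 4.49 and 4.62 in VIVO and 3.66, 3.43 and 3.51 in VITRO, beside 3.86, 3.99 and 3.94 for IFOT-M and 3.79, 3.97 and 3.87 for IFOT-IM. Here the IFOT arrays overlapped each other and lay between VIVO and VITRO, which differed by -1.08 ± 0.12 (FDR = 5.15e-05). CDC20, the activator of the complex, ESPL1, separase itself, CDC27, ANAPC1, ANAPC4 and ANAPC7 were lower too, by 0.52 to 0.91 in size. ANAPC7 (FDR = 0.0501) lost its call without VITRO replicate 1 (0.173), VIVO replicate 2 (0.108) or VIVO replicate 3 (0.175). ANAPC5 (-0.23, FDR = 0.359) and CDC23 (-0.10, FDR = 0.617) did not pass.

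The largest fall of all was that of CENPA, the histone H3 variant that marks the centromere. It measured 6.31, 6.48 and 6.55 in VIVO and 4.22, 4.94 and 4.69 in VITRO, beside 5.77, 5.41 and 5.34 for IFOT-M and 4.99, 5.42 and 5.37 for IFOT-IM. The IFOT arrays lay between the 2 other groups. VITRO differed from VIVO by -1.83 ± 0.19, a fold of 3.54 (FDR = 4.07e-05).

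The NDC80 complex, which binds microtubules at the outer kinetochore, was measured in all 4 subunits, of which 3 fell and 1 did not pass. SPC25 measured 5.06, 5.17 and 4.87 in VIVO and 3.55, 3.79 and 3.30 in VITRO, beside 4.71, 4.39 and 4.25 for IFOT-M and 3.79, 4.55 and 4.11 for IFOT-IM. NUF2 measured 5.13, 5.29 and 5.43 in VIVO and 4.25, 3.82 and 4.06 in VITRO, beside 4.37, 4.45 and 4.55 for IFOT-M and 4.18, 4.44 and 4.53 for IFOT-IM. VIVO was above all other arrays in both, and VITRO overlapped IFOT-IM in NUF2. The differences between VITRO and VIVO were -1.49 ± 0.20 (FDR = 0.000176) for SPC25, -1.24 ± 0.14 (FDR = 7.67e-05) for NUF2 and -1.18 ± 0.22 (FDR = 0.00162) for NDC80. SPC24, the partner of SPC25, differed by -0.23 (95% confidence interval -0.53 to 0.07, FDR = 0.195). Checkpoint genes were lower as well, BUB3 by a fold of 2.25 (FDR = 9.72e-05), BUB1B by 1.60 (FDR = 0.00184) and BUB1 by 1.49 (FDR = 0.039), the last with its call lost without VITRO replicate 3 (0.144) or VIVO replicate 3 (0.116). CENPE, a kinetochore motor, and CENPF, a protein of the outer kinetochore, differed by -0.88 (FDR = 0.0033) and -0.48 (FDR = 0.0192).

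Of the spindle genes, KIF20A, a kinesin of the central spindle needed for cytokinesis, measured 5.68, 5.78 and 5.89 in VIVO and 4.07, 4.55 and 4.62 in VITRO, beside 5.16, 5.01 and 5.21 for IFOT-M and 4.38, 4.99 and 4.91 for IFOT-IM. KIF23, its neighbour in the central spindle, measured 5.44, 5.37 and 5.55 in VIVO and 4.28, 4.56 and 4.66 in VITRO, beside 4.77, 4.69 and 4.81 for IFOT-M and 4.73, 4.86 and 4.63 for IFOT-IM. In both, VIVO was above all other arrays and VITRO overlapped IFOT-IM. They were lower in VITRO than in VIVO by a fold of 2.59 (FDR = 0.000157) and 1.93 (FDR = 0.00018). KIF2C, a kinesin that shortens microtubules at centromeres, was more scattered, with 2.87, 3.52 and 3.18 in VIVO and 2.65, 2.04 and 1.97 in VITRO, beside 3.01, 3.01 and 2.82 for IFOT-M and 2.29, 2.79 and 2.81 for IFOT-IM. VIVO and IFOT-M overlapped, and VITRO lay below both (fold 1.95 against VIVO, FDR = 0.00423). KIF11, the motor that separates the poles, TPX2, an activator of AURKA, BIRC5, survivin of the passenger complex, ECT2, which directs the cleavage furrow, and PRC1, which bundles midzone microtubules, were lower by 0.57 to 0.92 in size, and INCENP, the scaffold of the passenger complex, did not pass (-0.28, FDR = 0.136).

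Condensin I, which compacts chromosomes, was lower in all 5 subunits. NCAPG measured 5.12, 5.11 and 5.12 in VIVO and 3.73, 3.87 and 3.75 in VITRO, beside 4.18, 4.21 and 4.07 for IFOT-M and 4.02, 4.34 and 3.99 for IFOT-IM. Its VIVO arrays were nearly equal and lay far above the rest, with VITRO the lowest group, at a fold of 2.52 below VIVO (FDR = 1.99e-05). SMC4, one of the ATPase subunits, measured 5.14, 5.23 and 5.31 in VIVO and 4.26, 4.55 and 4.33 in VITRO, beside 4.89, 4.97 and 4.92 for IFOT-M and 4.62, 4.68 and 4.75 for IFOT-IM. These 4 groups did not overlap and stepped down from VIVO through IFOT-M and IFOT-IM to VITRO, by a fold of 1.80 from VIVO to VITRO (FDR = 0.000189). NCAPH, which closes the condensin ring, measured 4.06, 3.96 and 4.04 in VIVO and 3.02, 3.09 and 3.45 in VITRO, beside 3.49, 3.72 and 3.87 for IFOT-M and 3.37, 3.81 and 3.88 for IFOT-IM. The IFOT groups overlapped each other there and VITRO overlapped IFOT-IM, while VITRO was lower than VIVO by 0.83 in size (FDR = 0.00218), beside 0.80 for SMC2 (FDR = 0.00506) and 0.70 for NCAPD2 (FDR = 0.000881).

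**Figure D2:**
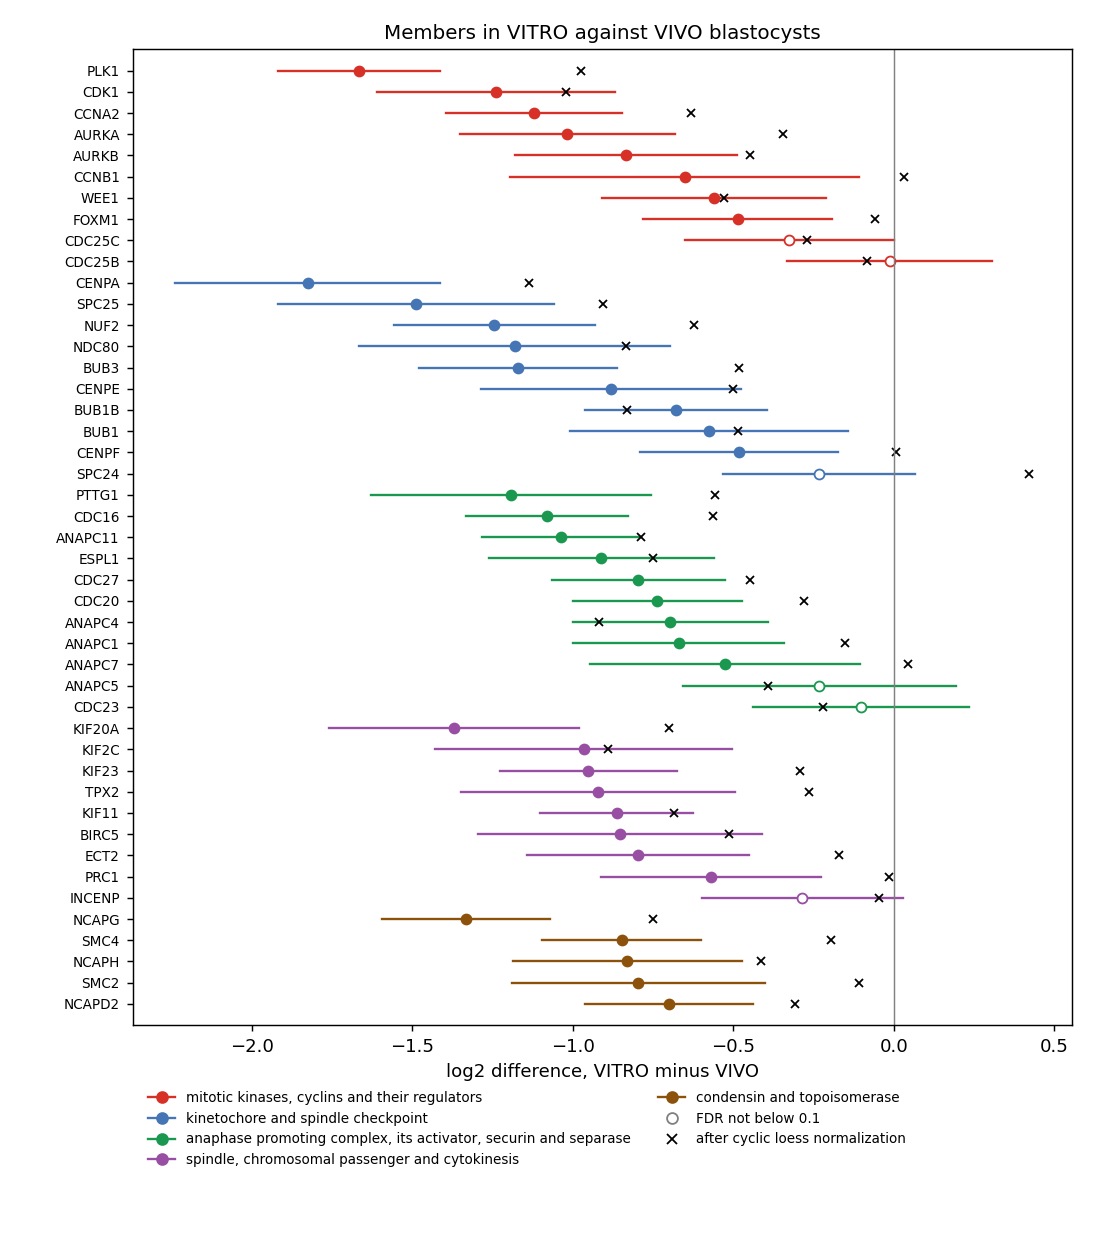
Log2 difference VITRO minus VIVO (horizontal axis) of the 45 genes, by function group. Circles are differences with bars for the 95% confidence interval, open circles did not pass an FDR of 0.1, and crosses give the difference after cyclic loess normalization. All circles lie at or below 0, from -1.83 for CENPA to -0.01 for CDC25B, and most crosses lie nearer to 0.

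The genes sit mostly among strong signals, which fell in VITRO as a class. In the decile of probe sets with the highest mean level, 69.8% were lower in VITRO and the median difference was -0.66, and the 14 mitotic genes there had a median of -0.98 with 13 lower. In the decile below it 62.4% were lower with a median of -0.56, and all 14 mitotic genes were lower with a median of -0.78. In the next decile 39.4% were lower with a median of -0.23, beside 7 of 8 mitotic genes with a median of -0.89. The 9 genes at weaker levels included BUB1B, KIF2C, WEE1, BUB1 and ANAPC4, which were lower, and CDC25B, CDC25C, ANAPC5 and CDC23, which did not pass. They lay in deciles 7 (3 of 5 genes lower), 6 (1 of 3) and 5 (1 of 1), where 23.3%, 12% and 8.68% of all probe sets were lower. When all arrays were brought to 1 distribution by quantile normalization, which moved the median of all probe sets from 0.13 to 0.00, the genes differed by a median of -0.55, with 29 lower and 0 higher, beside 16.6% of all probe sets lower. Cyclic loess normalization, which levels the trend with intensity, gave a median of -0.45, with 27 lower beside 14.8% of probe sets and 1 higher beside 13.6%. These 27 were also among the 39, and 27 passed in all 3 versions. The 1 higher gene was SPC24 (0.42, FDR = 0.0341). Calls lost under both normalizations were those of CCNB1, BUB1, CENPF, ANAPC1, ANAPC7, TPX2, ECT2, PRC1, SMC2 and FOXM1, and those of KIF23 (FDR = 0.1) and SMC4 (0.218) were lost under cyclic loess. How the deposited arrays came to differ in spread was not tested.

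**Figure D3:**
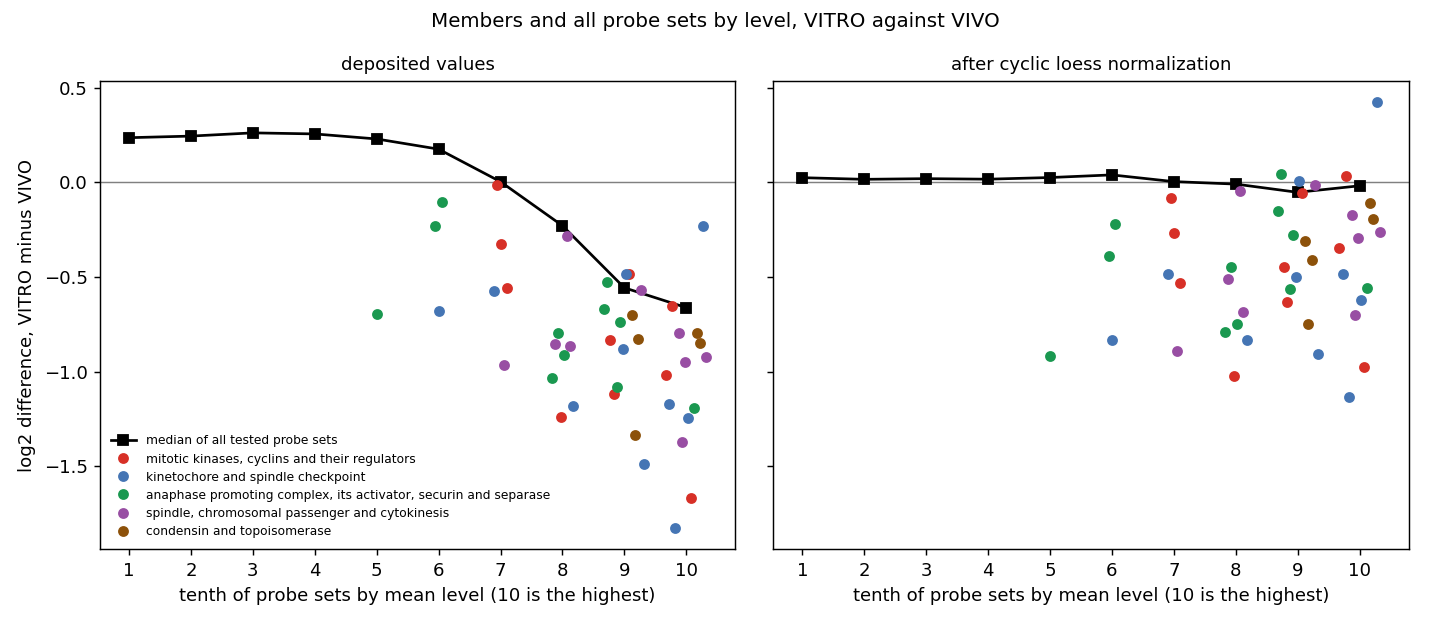
Log2 difference VITRO minus VIVO (vertical axis) by decile of mean level (horizontal axis, 10 the highest), for the deposited values and after cyclic loess normalization. Squares are medians of all tested probe sets and circles are the mitotic genes. On the left the squares drop to -0.66 at the highest level, with most circles below them, and on the right the squares lie near 0 while 41 of the 45 circles are still below 0.

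Embryos that developed in a heifer from transferred oocytes were in between. IFOT-M differs from VIVO in oocyte source, in vitro maturation, superovulation and follicle injection, which cannot be told apart. In IFOT-M against VIVO 15 genes were lower (6.87% of all probe sets) and 0 higher (3.21%), with a median of -0.38, and 2 were lower by more than 2-fold (0.901%). In IFOT-IM against VIVO, in which maturation also took place in a follicle, 26 were lower (12.6%) and 0 higher (7.95%), with a median of -0.54, and 5 were lower by more than 2-fold (2.02%). The IFOT arrays lay wholly below the VIVO arrays in 26 genes for IFOT-M (15.4% of all probe sets) and in 34 for IFOT-IM (17.5%). Both comparisons share the VIVO arrays. Among probe sets of equal mean signal the shares were closer. In the highest decile 7 of 14 genes and 22.1% of all probe sets were lower in IFOT-M, with medians of -0.48 and -0.16. For IFOT-IM it was 11 of 14 and 44.3% there, with medians of -0.67 and -0.34. In the decile below it 3 of 14 and 18.9% were lower in IFOT-M, and 7 of 14 and 34.7% in IFOT-IM. The mean of IFOT-M lay between those of VIVO and VITRO in 40 of the 45 genes and that of IFOT-IM in 38. The order VIVO, IFOT-M, IFOT-IM, VITRO held in 33 genes. How many of all probe sets kept this order was not counted. Strong signals as a class stepped down alike. Against VIVO, all probe sets of the highest decile had medians of -0.16 (IFOT-M), -0.34 (IFOT-IM) and -0.66 (VITRO). In the decile below it the medians were -0.16, -0.26 and -0.56. Whether the order in the genes goes beyond that of strong signals was not tested.

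The 6 genes with the largest fall in an IFOT group were PTTG1, CENPA, CDK1, KIF20A, NCAPG and ANAPC11. PTTG1 was lower than in VIVO by a fold of 2.20 in IFOT-M (FDR = 0.00623) and 2.56 in IFOT-IM (FDR = 0.00111). CDK1 was lower by 2.04 (FDR = 0.00448) and 2.20 (FDR = 0.00122). These were the only 2 genes past 2-fold in IFOT-M.

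CENPA was lower by a fold of 1.91 in IFOT-M (FDR = 0.0126) and 2.27 in IFOT-IM (FDR = 0.0018), and ANAPC11 by 1.96 (FDR = 0.000617) and 1.92 (FDR = 0.000369). NCAPG was lower by a fold of 1.95 in IFOT-M (FDR = 0.000886) and by just over 2-fold in IFOT-IM (FDR = 0.000359). KIF20A was lower by 2.03 in IFOT-IM (FDR = 0.00294), and by 1.57 in IFOT-M (FDR = 0.0504), a call lost after quantile normalization (0.134), after cyclic loess (0.102) and, at 0.103 to 0.166, without IFOT-M replicate 1, 2 or 3 or VIVO replicate 2 or 3. The other 9 genes lower in IFOT-M were PLK1, NUF2, BUB1B, BUB3, CDC16, CDC20, ESPL1, KIF11 and KIF23, by 0.41 to 0.83 in size there and by 0.46 to 0.91 in IFOT-IM. In IFOT-M the calls of BUB3 (FDR = 0.13 to 0.248), CDC20 (0.105 to 0.13) and KIF11 (0.107 to 0.161) were lost without any of 4 or more single IFOT-M or VIVO arrays. The 11 further genes lower in IFOT-IM were CCNA2, SPC25, SMC4, ECT2, ANAPC4, ANAPC1, CENPE, TPX2, SMC2, BUB1 and BIRC5. Without IFOT-IM replicate 1 the last 5 and ANAPC1 no longer passed, at 0.104 for ANAPC1, 0.205 for CENPE, 0.193 for TPX2, 0.148 for SMC2, 0.323 for BUB1 and 0.243 for BIRC5, and those other than ANAPC1 were also lost without some other single arrays. After quantile normalization 11 genes were lower in IFOT-M (4.08%) and 16 in IFOT-IM (7.06%), and after cyclic loess 13 (5.12%) and 16 (7.79%). CCNA2 (FDR = 0.18 and 0.142) and SMC4 (0.281 and 0.346) were among the calls lost in IFOT-IM.

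**Figure D4:**
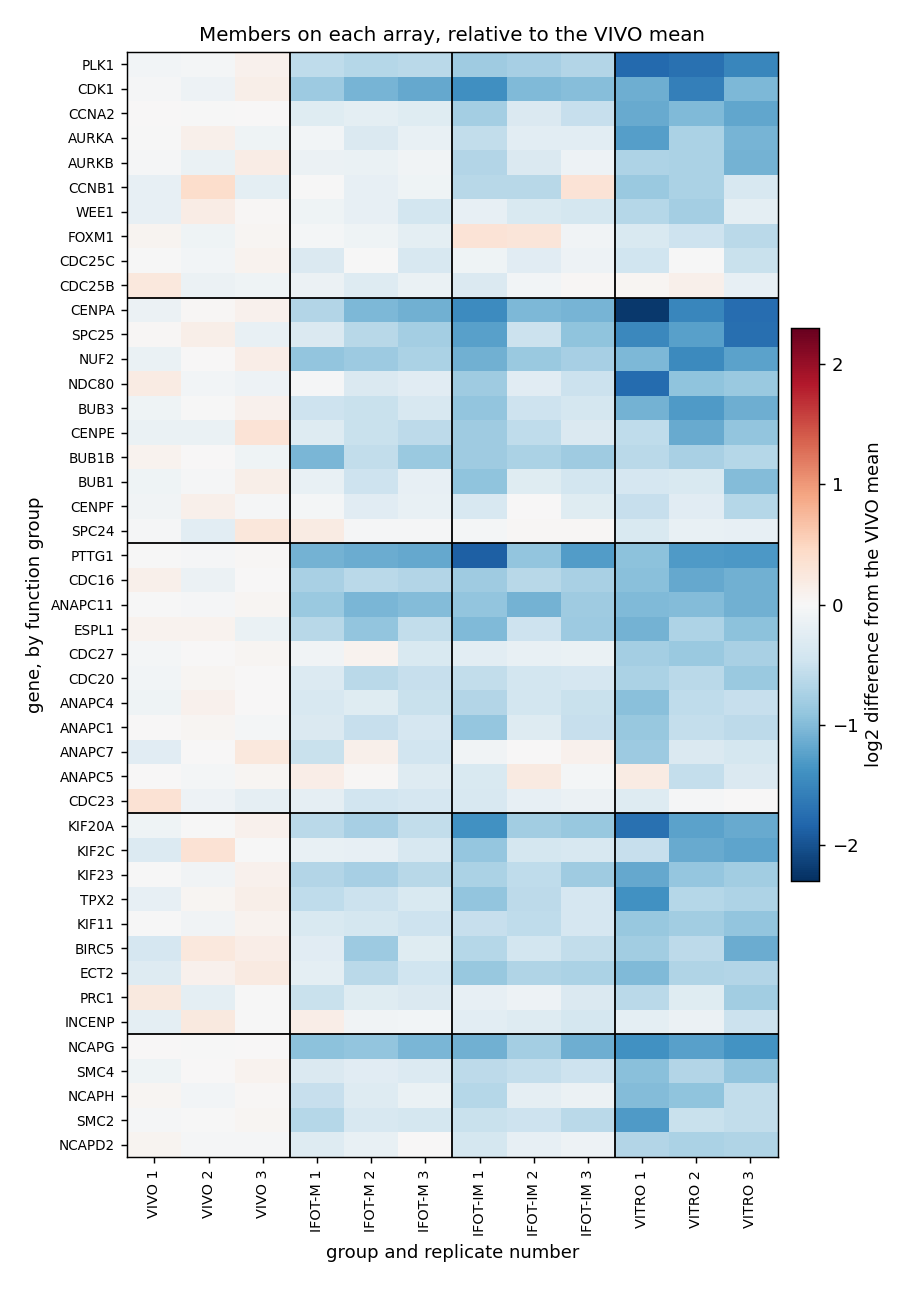
Difference of each array from the VIVO mean of the gene (log2, colour) for the 45 genes (rows, by function group) on the 12 arrays (columns). Blue is below the VIVO mean, as for CENPA, whose lowest VITRO array measured 4.22 against a VIVO mean of 6.44. IFOT-IM replicate 1, with a median over the genes of 3.58, is bluer than the other 2 arrays of its group, at 3.82 and 3.97.

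No gene passed the test between the IFOT groups. IFOT-M against IFOT-IM sets maturation in vitro before transfer against maturation in the follicle after transfer. The 2 groups also differ in the follicle injected and in the time spent in it, which cannot be told apart from maturation. In this comparison 0 of the 45 genes passed an FDR of 0.1 in limma, as did 0% of all probe sets, and the unmoderated model called 0 genes as well. At an unadjusted p below 0.05 there were 2 genes, beside 7.6% of all probe sets, CCNA2 with a difference of 0.28 (95% confidence interval 0.01 to 0.56) and FOXM1 with -0.29. The median difference was 0.09 (0.03 after quantile normalization), beside -0.01 for all probe sets, with IFOT-M above IFOT-IM in the means of 36 genes. At strong signal all probe sets leaned the same way. In the highest decile the medians were 0.16 for the genes and 0.17 for all probe sets, and in the decile below it 0.06 and 0.10. All IFOT-M arrays lay above all IFOT-IM arrays in 7 genes (7.54% of all probe sets) and below them in 0.

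VITRO was also set directly against the transferred oocytes. IFOT-M shares in vitro maturation with VITRO but differs in follicle injection, fertilization and culture, which cannot be told apart. Against IFOT-M, 19 genes were lower in VITRO (12.9% of all probe sets) and 0 higher (8.38%), with a median of -0.36. The 3 VITRO arrays lay below the 3 IFOT-M arrays in 29 genes (17.6%). Among probe sets of equal mean signal the shares were closer. In the highest decile 7 of 14 genes and 52.5% of all probe sets were lower, with medians of -0.49 and -0.44, in the decile below it 8 of 14 and 37.4%, with medians of -0.38 and -0.33, and in the next 3 of 8 and 19.4%. The 19 lower genes were PLK1, CCNA2, AURKA, AURKB and FOXM1 among the kinases, cyclins and regulators, CENPA, NDC80, NUF2, SPC25 and BUB3 at the kinetochore, KIF11, KIF20A and KIF2C of the spindle, NCAPG, NCAPH, NCAPD2 and SMC4 of condensin, and CDC16 and CDC27 of the anaphase promoting complex.

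PLK1 was the only gene past 2-fold in this comparison (1.61% of all probe sets), with a fold of 2.07 (FDR = 0.0005), and it was lower than in IFOT-IM by 1.89 (FDR = 0.00187). CCNA2 was lower by a fold of 1.81 against IFOT-M (FDR = 0.00183) and AURKA by 1.78 (FDR = 0.00515). NDC80, with VITRO arrays at 2.15, 2.99 and 3.06 and IFOT-M arrays at 3.89, 3.57 and 3.65, was lower by 1.96 (FDR = 0.0145), and CDC27, a subunit of the anaphase promoting complex that binds its activators, by 1.60 (FDR = 0.0049), with VITRO at 2.92, 2.85 and 2.97 and IFOT-M at 3.63, 3.80 and 3.36. VITRO lay below IFOT-M without overlap in each of these 5 genes. NDC80 and CDC27 were picked for display after their values were seen.

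For other genes the direct difference was small and its interval included 0. CDK1 differed between VITRO and IFOT-M by -0.21 (95% confidence interval -0.58 to 0.16), PTTG1 by -0.06 (-0.49 to 0.38) and ANAPC11 by -0.07 (-0.32 to 0.18). BUB1B, the checkpoint kinase BUBR1, differed by 0.14 (-0.14 to 0.43). These intervals leave room for differences of up to 0.58 in size, so that equal levels are not shown.

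After quantile normalization 13 genes were lower in VITRO than in IFOT-M (7.44%), and after cyclic loess 9 (5.39%). The 9 were PLK1, CCNA2, AURKA, AURKB, CDC27, NDC80, KIF11 and KIF2C, which were also among the 19, and ANAPC4. CDC16 (FDR = 0.421 and 0.799), NUF2 (0.68 and 0.958), NCAPG (0.621 and 0.992), NCAPH (0.211 and 0.388), SMC4 (0.228 and 0.53), KIF20A (0.145 and 0.244) and FOXM1 (0.534 and 0.778) lost the call under both. Cyclic loess alone ended those of CENPA (0.108), SPC25 (0.114), BUB3 (0.206) and NCAPD2 (0.139). The call of KIF2C was lost, at 0.107 to 0.12, without VITRO replicate 2 or 3 or IFOT-M replicate 1 or 2. That of CDC16 was lost without VITRO replicate 2 (0.106) or IFOT-M replicate 2 (0.119), and those of NUF2 (0.118 to 0.207), NCAPG (0.118 to 0.161), NCAPH (0.139 to 0.183) and FOXM1 (0.104 to 0.237) without any of 4 or more single arrays.

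Against IFOT-IM, 9 genes were lower in VITRO (5.86%) and 0 higher (2.81%), with a median of -0.30, and all VITRO arrays lay below all IFOT-IM arrays in 18 (11.2%). In the highest decile 4 of 14 genes and 24% of all probe sets were lower, with medians of -0.32 and -0.26, and in the decile below it 3 of 14 and 17.7%. These shares were closer to those of the genes than the share over all levels was. The 9 were PLK1, CCNA2, AURKA, FOXM1, CENPA, BUB3, KIF11, NCAPD2 and CDC27. FOXM1 was highest in IFOT-IM, at 3.96 ± 0.22 (SD, n = 3) against 3.79 ± 0.09 in VIVO and 3.30 ± 0.13 in VITRO, and VITRO lay below IFOT-IM by 0.66 in size (FDR = 0.0178). The count rested on single arrays, with 15 genes lower without IFOT-IM replicate 1 and 4 without IFOT-IM replicate 2 or 3. Without either of these 2 arrays AURKA, BUB3, CENPA, KIF11 and NCAPD2 no longer passed, at 0.109 to 0.24, and CENPA and KIF11 were also lost without some arrays of other groups. After quantile normalization it was 7 (4.26%) and after cyclic loess 2 (2.65%), PLK1 (FDR = 0.0118) and CDC27 (FDR = 0.0737).

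**Figure D5:**
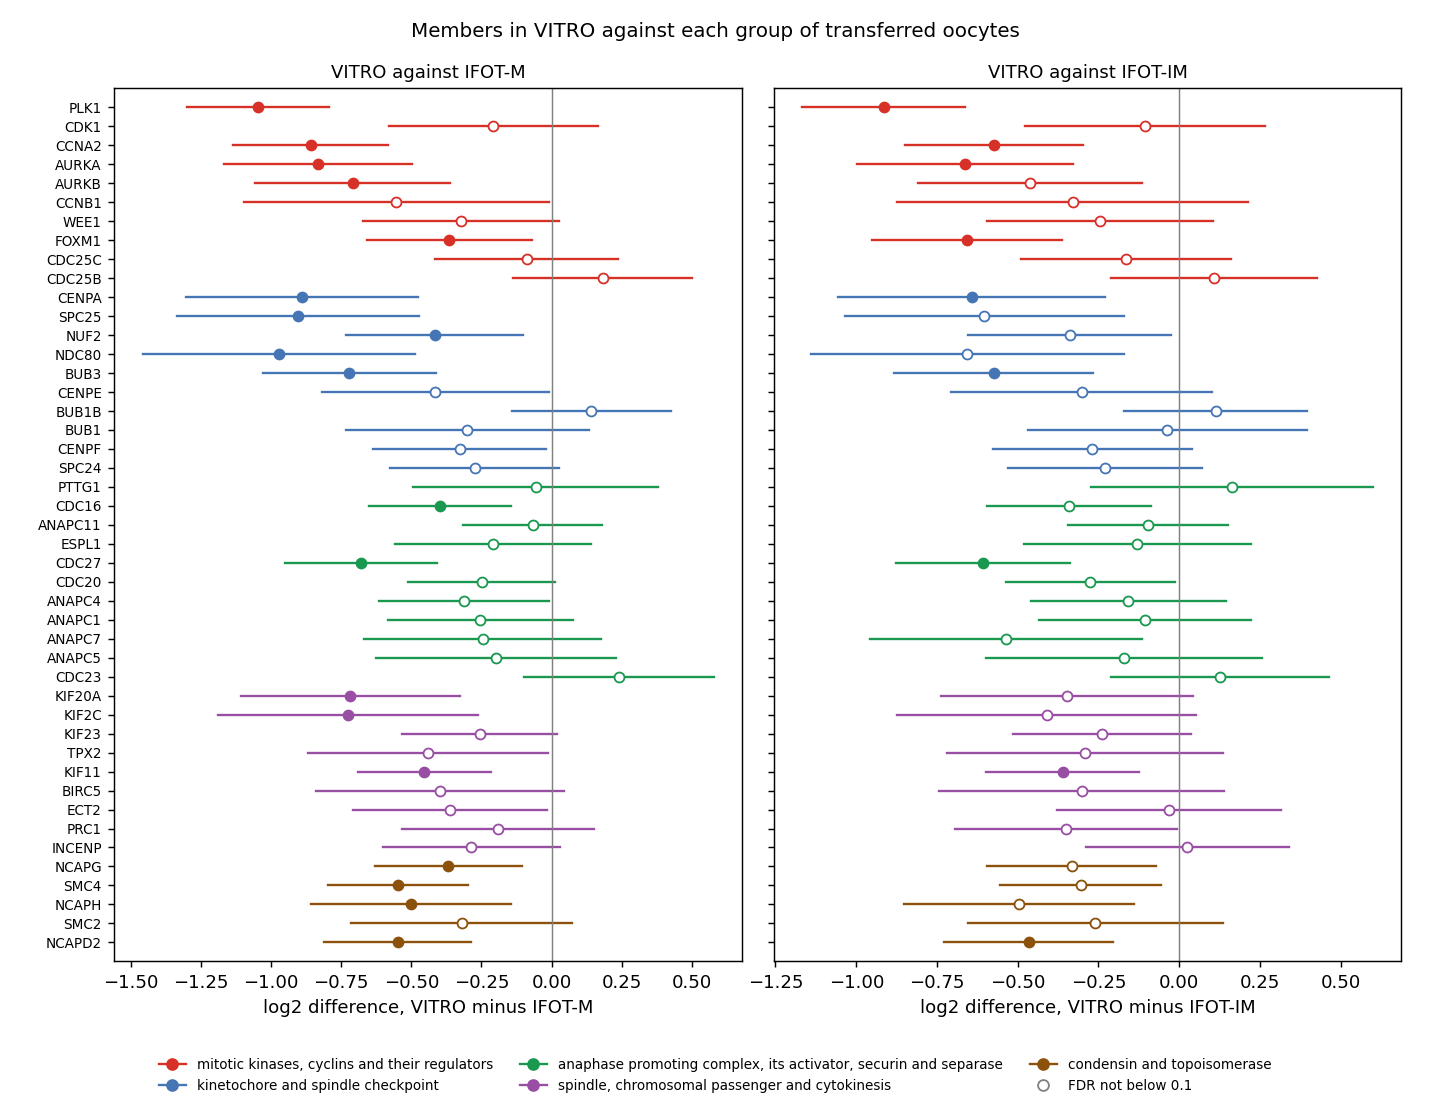
Log2 difference VITRO minus IFOT-M (left) and VITRO minus IFOT-IM (right) of the 45 genes, by function group. Circles are differences with bars for the 95% confidence interval, and filled circles passed an FDR of 0.1. PLK1 is lowest in both, at -1.05 and -0.91, while CDK1, PTTG1, ANAPC11 and BUB1B have bars across 0.

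Further genes of the same machinery were read from lists by function, also chosen with earlier results of these data known. Of 92 such genes 89 were tested, and 64 were lower and 2 higher in VITRO than in VIVO, with a median of -0.65, where 22.7% of all probe sets were lower and 25.1% higher. After quantile normalization 48 were lower, beside 16.6%, and 1, FZR1, higher. Among regulators 13 of 17 were lower, with the smallest FDR in CKS2, a subunit bound to CDK1 (-1.37, FDR = 6.7e-05), and CHEK1, a checkpoint kinase (-1.04, FDR = 8.68e-05). Around the anaphase promoting complex 6 of 9 were lower and 1 higher, but after quantile normalization 2 of 9 were lower, and UBE2C (FDR = 0.184), UBE2S (0.164), ANAPC13 (0.253) and ANAPC15 (0.102) no longer passed. FBXO5, the inhibitor EMI1, differed by -1.61 (FDR = 5.47e-05) and UBE2C, its ubiquitin-conjugating enzyme, by -0.75 (FDR = 0.00104), while FZR1, the activator that replaces CDC20 late in mitosis, was higher by 0.31 (FDR = 0.0983).

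At the kinetochore and centromere 20 of 26 were lower, with the smallest FDR in ZWILCH, of the complex that recruits dynein (-1.07, FDR = 7.24e-05), and CENPI, of the inner kinetochore (-1.18, FDR = 0.000116). CENPI was also lower than in VIVO by 1.19 in IFOT-M (FDR = 0.000853) and by 1.39 in IFOT-IM (FDR = 0.000179), whereas ZWILCH differed there by -0.13 and -0.23 and did not pass. Of the spindle and cytokinesis genes 16 of 22 were lower, with CKAP5, a microtubule polymerase (-0.92, FDR = 9.26e-05), and DLGAP5, which stabilises spindle fibres (-1.13, FDR = 0.000184), and KIF14, a kinesin of the midbody, was higher (0.38, FDR = 0.0467). For condensin II and cohesin it was 9 of 15, with PDS5A (-1.22, FDR = 0.000121), a cohesin regulator, and NIPBL (-0.96, FDR = 0.000182), which loads cohesin. In IFOT-M 24 (6.87% of all probe sets) and in IFOT-IM 36 (12.6%) of the 89 were lower than in VIVO, and 0 higher, and after quantile normalization 12 (4.08%) and 22 (7.06%) were lower. KIF14 no longer passed in VITRO after quantile normalization (0.421).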

How the data were processed

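The authors extracted RNA from pools of blastocysts and hybridised amplified, biotin-labelled cDNA to the arrays. The deposited values are RMA values on a log2 scale, inferred from their range, which the authors made by background correction, quantile normalization and summary of probe sets. Whether that normalization was run jointly over the groups is not given in the sources used here. Of 26773 probe sets, 18457 carried 1 symbol, 688 several and 7628 none, and all but the 2358 with the lowest mean were tested. The 4 groups were fitted in 1 model with limma 3.58.1 in R 4.3.3, with 8 residual degrees of freedom. Tests were two-sided with Benjamini-Hochberg FDR over all tested probe sets, called below 0.1, and with 3 pools in a group the number of arrays limits the precision. The study calls the replicates independent and biological. The pipeline was tested on simulated data.

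The members, function groups and lists were chosen with earlier results of these data known. Named genes were the 3 of each function group with the largest difference between VITRO and VIVO, PLK1, CDK1, CCNA2 and ANAPC11, which the study names, the 6 with the largest difference in an IFOT group, and the 2 with the smallest FDR in each further list. Alternatives were other normalizations, filters, variance models, covariates, an FDR below 0.05, the mean over probe sets of a symbol, and leaving out each array. Marker lists for sperm, blood, and oviduct and uterine epithelium were also read. In VITRO against VIVO 1 of 4 sperm markers measured was higher, 0 of 3 blood markers differed, and 1 of 4 oviduct and uterine markers was lower and 1 higher. Of all tested probe sets 22.7% were lower and 25.1% higher.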

Additional observations from a re-analysis of the deposited data

How the results depend on the processing

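The count for VITRO against VIVO ran from 27 to 40 lower genes over all alternatives, and that for VITRO against IFOT-IM from 1 to 15. By quantile normalization the count for IFOT-IM against VIVO was 16 in place of 26 (7.06% of all probe sets in place of 12.6%). Cyclic loess gave 16 there (7.79%). It gave 9 in place of 19 for VITRO against IFOT-M (5.39% in place of 12.9%). For VITRO against IFOT-IM it gave 2 in place of 9 (2.65% in place of 5.86%). For VITRO against VIVO it gave 1 higher gene in place of 0 (13.6% in place of 25.1%). The 9 for VITRO against IFOT-IM became 15 with the stricter filter, which kept only the stronger signals. They became 1 when only the groups compared were fitted and 4 with RNA integrity (RIN) as a covariate. Outside the 2 normalizations, the shares of all probe sets called under each alternative are not given here. The counts under those alternatives are thus not set against a background. Other counts of lower genes with all 12 arrays stayed within 1.5 times of the main value.

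Leaving out 1 array gave 37 to 40 lower genes for VITRO against VIVO with 0 higher, 11 to 18 for IFOT-M and 20 to 27 for IFOT-IM against VIVO, 14 to 20 for VITRO against IFOT-M, 4 to 15 for VITRO against IFOT-IM, and 0 called between the IFOT groups.

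Values that changed sign between VITRO and VIVO were SPC24 by quantile normalization (0.31), and by cyclic loess CCNB1 (0.0310), ANAPC7 (0.0452), SPC24 (0.42) and CENPF (0.00776). CDC23 turned to 0.0258 with RIN, and leaving out 1 array gave -0.206 to 0.0631 for CDC23 (highest without VIVO replicate 1) and -0.0840 to 0.110 for CDC25B (above 0 without VITRO replicate 3 or VIVO replicate 1). NCAPG between VITRO and IFOT-M was 0.00341 by cyclic loess. The cause was not tested.

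No clear pairing of the arrays by replicate number was seen. Over 18 pairs of equal number the correlation of deviations from the group means was -0.08 to 0.12, with 1 above 0.1. Effects shared by only some probe sets could be missed by this. With the replicate number as a block, 39, 17, 24, 20 and 11 genes were lower, in the order of the paragraph before, and 0 differed between the IFOT groups.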
